A study of Mus musculus with 6 samples.

Results

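The genes described here are the 8 subunit genes of the condensin complexes (Smc2, Smc4, Ncapd2, Ncapg, Ncaph, Ncapd3, Ncapg2 and Ncaph2) together with Top2a and Mki67. They were taken by name, and all 10 were found once each among the 38924 genes of the count files. The set was put together with the Apert against WT fold changes of these libraries in view, so it counts as chosen by those values. Every difference of the 10 genes between the genotypes is therefore a description and carries no test. The RNA came from the front of the nasal septum, a cartilage plate in the midline of the snout, cut out by laser microdissection of frozen head sections at embryonic day 14.5. Cartilage of 3 Apert mice was set against cartilage of 3 WT mice, with 1 library per mouse, to ask which transcripts differ between the genotypes. Apert mice carried 1 Fgfr2 allele with the S252W substitution, which models human Apert syndrome, together with the EIIA-Cre transgene. The EIIa promoter drives Cre in the early embryo, so the allele is expected throughout the body and not in cartilage alone. WT mice are labelled wild type with no further detail, and both groups are labelled C57BL/6.

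Condensins are ring-shaped complexes that use ATP to fold chromatin into loops and so compact chromosomes for division. Both condensins share the ATPase pair encoded by Smc2 and Smc4. Condensin I adds the kleisin Ncaph and the HEAT-repeat subunits Ncapd2 and Ncapg and reaches chromosomes after the nuclear envelope breaks down, while condensin II adds Ncaph2, Ncapd3 and Ncapg2 and is nuclear through interphase. Topoisomerase II alpha, the product of Top2a, passes DNA strands through each other so that sister chromatids can part. Ki-67, the product of Mki67, coats mitotic chromosomes and keeps them apart from one another, and it is used as a marker of cycling cells. In growing cartilage, dividing chondrocytes and the cells of the surrounding perichondrium are the known sources of these transcripts.

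Library totals ran from 6760510 to 10527915 counts in Apert and from 8631181 to 10834744 in WT, and 1 count was worth 0.0923 to 0.148 CPM (counts per 1e6 counts of the library). Mitochondrial genes took 37.1% ± 3.06 of counts in Apert and 29.6% ± 0.756 in WT (SD, n = 3 each; two-sided exact permutation p = 0.1, the smallest that 3 against 3 libraries can give). Fgfr2 itself was measured at 519 ± 58.9 CPM in Apert and 630.1 ± 61.7 CPM in WT (SD, n = 3 each), and a point mutation leaves its exons countable, so this does not check the labels. The chondrocyte markers Col2a1, Acan, Sox9 and Matn1 were detected in every library, and Col2a1, the main cartilage collagen, averaged 17510 ± 1021 CPM in Apert and 19695 ± 4245 CPM in WT (SD, n = 3 each). CPM values below are scaled by the trimmed mean of M values (TMM).

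The genes lie on 10 different chromosomes of mm10. Smc2 (ENSMUSG00000028312) spans 52439243 to 52488260 on chromosome 4 and Smc4 (ENSMUSG00000034349) 69004738 to 69034623 on chromosome 3, both on the plus strand. Of the condensin I genes, Ncapd2 (ENSMUSG00000038252) spans 125168009 to 125191595 on the minus strand of chromosome 6, Ncapg (ENSMUSG00000015880) 45669922 to 45700544 on the plus strand of chromosome 5, and Ncaph (ENSMUSG00000034906) 127103809 to 127133954 on the minus strand of chromosome 2. Of the condensin II genes, all on the plus strand, Ncapd3 (ENSMUSG00000035024) spans 27030175 to 27095311 on chromosome 9, Ncapg2 (ENSMUSG00000042029) 116405402 to 116463531 on chromosome 12, and Ncaph2 (ENSMUSG00000008690) 89355719 to 89372826 on chromosome 15. Top2a (ENSMUSG00000020914) spans 98992943 to 99024189 on chromosome 11 and Mki67 (ENSMUSG00000031004) 135689788 to 135716379 on chromosome 7, both on the minus strand. Mki67 is on the chromosome of the mutated gene, 2.57 Mb beyond the end of Fgfr2 as the count files place it. There Fgfr2 spans 130162451 to 133123350 and shares 314 bp of exon with Ctbp2, so the gap rests on that gene model. In the files Ncaph2 shares exon bases with Tymp (535 bp) and Sco2 (827 bp), Ncapg shares 942 bp with Lcorl, and Top2a shares 122 bp with Gm23451, so part of their counts is uncertain.

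The promoters of these genes are shown because transcription of many mitotic genes is known to run through CCAAT boxes, bound by NF-Y, and the cell cycle homology region TTTGAA, bound by the MuvB core of the DREAM complex. RefSeq windows (GRCm38.p6) of 250 bases ending just before the start site were matched for 9 of the 10 genes, Smc4 being the gene not matched. They were searched on both strands for CCAAT, for the TTTGAA element named above, and for a form of the E2F site, TTTNNCGC. No 2 matches overlapped. The 9 genes had 10 windows, Ncapd3 having 2, and a gene was counted if any of its windows held the motif. CCAAT was found in 5 of the 9 genes and in 33.8% of 32851 promoter windows of all genes. TTTGAA was found in 7 of the 9 genes and in 15.99% of all windows. Ncapd3 held TTTGAA only in its window starting at 27060166, inside the gene, and not in that starting at 27029915, beside the gene start. Top2a, Mki67, Smc2, Ncapg and Ncapd2 held both, as did 5.55% of all windows, and Ncapd2 and Ncapg2 held TTTNNCGC, as did 4.28% of all windows. These counts describe letters and not bound sites. The motifs were chosen after the promoters were read, so nothing is read from the counts beside the shares of all windows. None of the 3 motifs was found in the windows of Ncaph2 and Ncaph. Below are the 5 windows with both CCAAT and TTTGAA and that of Ncaph2, the 1 gene of the 10 with a lower level in Apert cartilage. The windows are Top2a at chr11:99024190-99024439 on the minus strand, Mki67 at chr7:135716380-135716629 on the minus strand, Smc2 at chr4:52438971-52439220 on the plus strand, Ncapg at chr5:45669675-45669924 on the plus strand, Ncapd2 at chr6:125191587-125191836 on the minus strand and Ncaph2 at chr15:89355469-89355718 on the plus strand, each read 5′ to 3′ along the gene with the matches in capitals.
Top2a: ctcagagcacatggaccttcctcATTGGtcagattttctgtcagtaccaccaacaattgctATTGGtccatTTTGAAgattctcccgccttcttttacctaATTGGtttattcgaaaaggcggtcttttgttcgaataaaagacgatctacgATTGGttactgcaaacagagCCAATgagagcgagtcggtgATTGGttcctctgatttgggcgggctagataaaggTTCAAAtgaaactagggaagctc
Mki67: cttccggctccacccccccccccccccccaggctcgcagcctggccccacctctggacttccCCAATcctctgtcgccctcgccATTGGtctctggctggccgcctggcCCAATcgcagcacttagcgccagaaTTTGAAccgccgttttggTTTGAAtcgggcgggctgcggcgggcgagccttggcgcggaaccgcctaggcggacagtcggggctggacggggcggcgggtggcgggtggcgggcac
Smc2: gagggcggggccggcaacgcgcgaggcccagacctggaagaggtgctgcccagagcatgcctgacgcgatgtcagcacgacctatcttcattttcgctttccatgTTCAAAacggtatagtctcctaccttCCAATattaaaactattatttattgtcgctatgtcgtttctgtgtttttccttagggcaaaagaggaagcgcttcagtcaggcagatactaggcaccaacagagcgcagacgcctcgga
Ncapg: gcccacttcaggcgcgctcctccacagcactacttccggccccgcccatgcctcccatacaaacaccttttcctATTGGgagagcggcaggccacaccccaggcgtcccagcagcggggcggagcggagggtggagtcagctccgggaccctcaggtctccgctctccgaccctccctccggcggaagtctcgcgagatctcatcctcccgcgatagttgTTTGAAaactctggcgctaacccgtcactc
Ncapd2: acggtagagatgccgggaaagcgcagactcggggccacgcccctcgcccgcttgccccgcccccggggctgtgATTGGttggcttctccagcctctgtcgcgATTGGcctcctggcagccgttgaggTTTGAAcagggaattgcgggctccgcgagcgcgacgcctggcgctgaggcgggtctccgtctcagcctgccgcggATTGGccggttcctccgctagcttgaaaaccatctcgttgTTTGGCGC
Ncaph2: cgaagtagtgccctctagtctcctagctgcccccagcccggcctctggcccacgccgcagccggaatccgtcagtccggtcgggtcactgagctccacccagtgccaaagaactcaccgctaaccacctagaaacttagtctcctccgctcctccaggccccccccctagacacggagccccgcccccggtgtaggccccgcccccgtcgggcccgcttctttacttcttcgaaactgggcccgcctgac
Counted back from the start site, the TTTGAA matches (TTCAAA on the other strand) begin 23 and 179 bases upstream in Top2a, 98 and 116 in Mki67, 145 in Smc2, 30 in Ncapg and 123 in Ncapd2. Top2a has 6 CCAAT matches in its window, Mki67 and Ncapd2 have 3 each, and Smc2 and Ncapg have 1 each.

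All 10 genes passed the low-count filter. Of the 10, 9 had more transcript in Apert cartilage than in WT cartilage, against 51.1% of the 13333 genes tested. In 8 of them the lowest Apert library lay above the highest WT library, against 8.92% of genes tested, and in none did the highest Apert library lie below the lowest WT library, against 7.7%. An unadjusted p under 0.05 with a higher level in Apert was found for 6.35% of genes tested. Differences were near 2-fold for the shared ATPase genes, Top2a and Mki67, smaller for most of the subunits of either complex, and in the opposite direction for the condensin II kleisin gene Ncaph2. The median log2 fold change of the 10 genes was 0.85, beside 0.01 for all genes tested. Smc2, Smc4, Top2a and Mki67 were among the genes that passed in the fit over all genes (edgeR quasi-likelihood test, adjusted p under 0.05), where 53 genes, 0.398%, were called higher and 7 genes, 0.0525%, lower in Apert. Nothing is read from that count, since the genes were proposed from this contrast. It was 2, 3 or 0 without WT replicate 1, 2 or 3 and 4, 0 or 1 without Apert replicate 1, 2 or 3, while 9 of the 10 fold changes were positive in all 18 alternative fits. Scaling by library totals alone moved the median of all genes to -0.14, gave 17 genes higher and 24 lower, and left 3 of the 10 genes called.

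**Figure D1:**
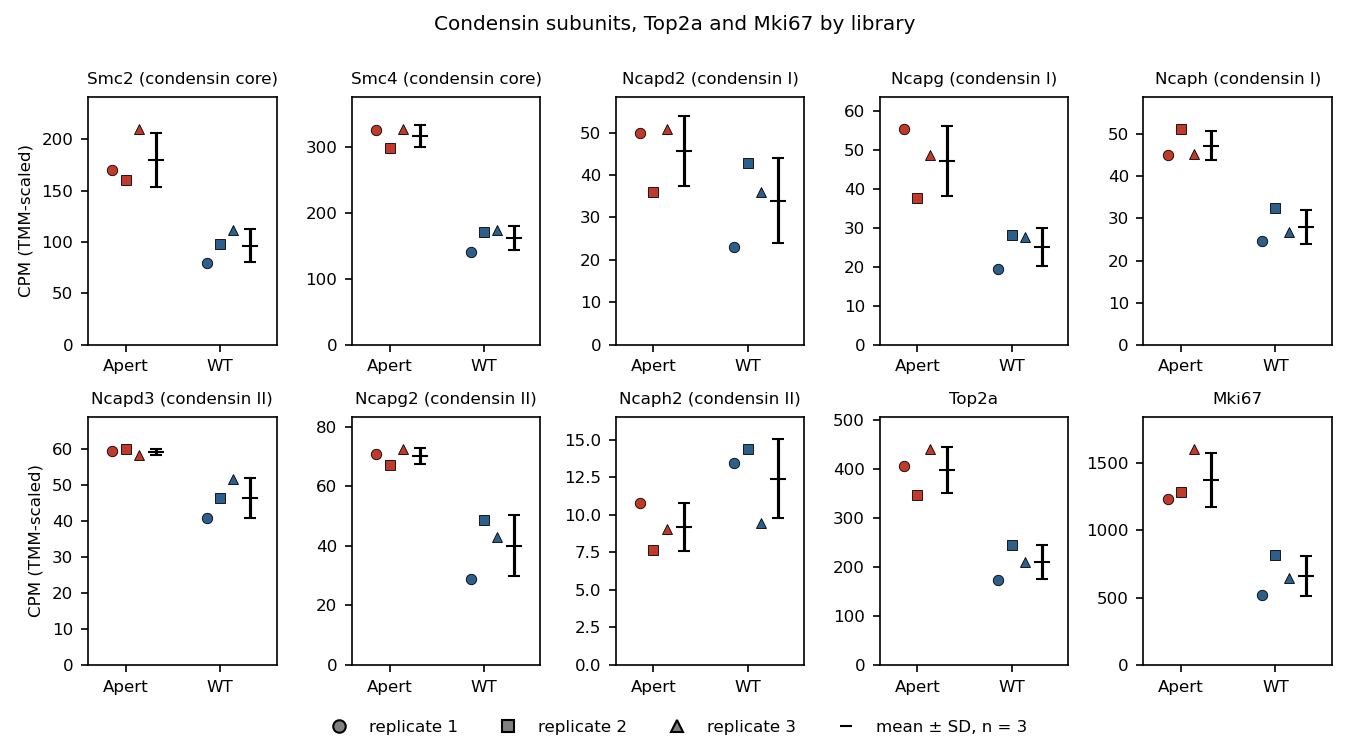
TMM-scaled CPM of each gene (y axis, from 0) in the 3 Apert and the 3 WT libraries (points, with a shape for each replicate number) with the mean ± SD. The groups stand apart in 8 panels, with Mki67 at 1234 to 1605 CPM in Apert and 518 to 816 CPM in WT, and overlap for Ncapd2 and Ncaph2.

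The ATPase core was high in every Apert library. Smc4 was measured at 325, 298 and 327 CPM in Apert replicates 1 to 3, against 141, 170.4 and 174 CPM in WT replicates 1 to 3. All 3 Apert libraries stood far above the WT libraries and varied little, with a coefficient of variation of 5.18% in Apert and 11.4% in WT. Smc2 was measured at 170.0, 160.5 and 210.3 CPM in Apert, against 79.8, 98.3 and 112 CPM in WT. Its highest value was in Apert replicate 3 and its lowest in WT replicate 1, and the groups did not overlap. The log2 fold change was 0.97 for Smc4 (standard error 0.14) and 0.90 for Smc2 (standard error 0.16), or 1.96-fold and 1.87-fold by the means. Smc2 was no longer called without any 1 of the WT libraries, Apert replicate 2 or Apert replicate 3, and Smc4 was not called without WT replicate 3 or Apert replicate 2. In bulk tissue, more cycling cells and more transcript per cell cannot be told apart, and this holds for every gene below.

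The subunits particular to condensin I were less abundant, and 2 of the 3 separated the genotypes. Ncapg, a HEAT-repeat subunit, was measured at 55.5, 37.7 and 48.8 CPM in Apert, against 19.6, 28.1 and 27.7 CPM in WT. The lowest Apert library, replicate 2, was still above all WT libraries. Ncaph, the kleisin that closes the condensin I ring, was measured at 45.2, 51.3 and 45.4 CPM in Apert, against 24.6, 32.6 and 26.8 CPM in WT. Here too the groups did not overlap, and the spread was small in Apert. Ncapd2, the other HEAT-repeat subunit, was measured at 49.97, 36.1 and 50.9 CPM in Apert, against 23.1, 42.8 and 35.9 CPM in WT. Apert replicate 2 fell within the WT range, so the groups overlapped. Log2 fold changes were 0.92 for Ncapg (standard error 0.21), 0.76 for Ncaph (standard error 0.19) and 0.43 for Ncapd2 (standard error 0.22), and none of the 3 was among the genes called. Ncapd2 rested on single libraries, with a log2 fold change of 0.21 without WT replicate 1 and 0.63 without WT replicate 2.

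The condensin II subunits did not share a direction. Ncapg2 was measured at 70.8, 67.1 and 72.4 CPM in Apert, against 28.7, 48.5 and 43.1 CPM in WT. Ncapd3 was measured at 59.6, 60.02 and 58.3 CPM in Apert, against 40.7, 46.5 and 51.8 CPM in WT. For both HEAT-repeat subunits the Apert libraries were nearly alike, with coefficients of variation of 3.90% and 1.48%, and lay above all WT libraries. Ncaph2, the kleisin of condensin II, was measured at 10.8, 7.62 and 9.07 CPM in Apert, against 13.4, 14.4 and 9.42 CPM in WT. WT replicate 3 was below Apert replicate 1, so the groups overlapped. Log2 fold changes were 0.81 for Ncapg2 (standard error 0.19), 0.36 for Ncapd3 (standard error 0.17) and -0.43 for Ncaph2 (standard error 0.28), and none of the 3 was called. Ncaph2 had the fewest reads of the 10 genes, with 56 to 109 counts per Apert library and 87 to 155 per WT library, and its log2 fold change ran from -0.61 without Apert replicate 1 to -0.32 without WT replicate 2.

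Top2a and Mki67 were the most abundant genes by CPM. Top2a was measured at 405, 347 and 440 CPM in Apert, against 174, 243 and 210.1 CPM in WT. Mki67 was measured at 1234, 1290 and 1605 CPM in Apert, against 518, 816 and 644 CPM in WT. For both genes WT replicate 1 was the lowest library and Apert replicate 3 the highest, with no overlap between the genotypes. The log2 fold change was 0.93 for Top2a (standard error 0.15) and 1.06 for Mki67 (standard error 0.16), or 1.90-fold and 2.09-fold by the means. Top2a was not called without WT replicate 1 or 3 or Apert replicate 2 or 3, and Mki67 was not called without WT replicate 3, Apert replicate 2 or Apert replicate 3.

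**Figure D2:**
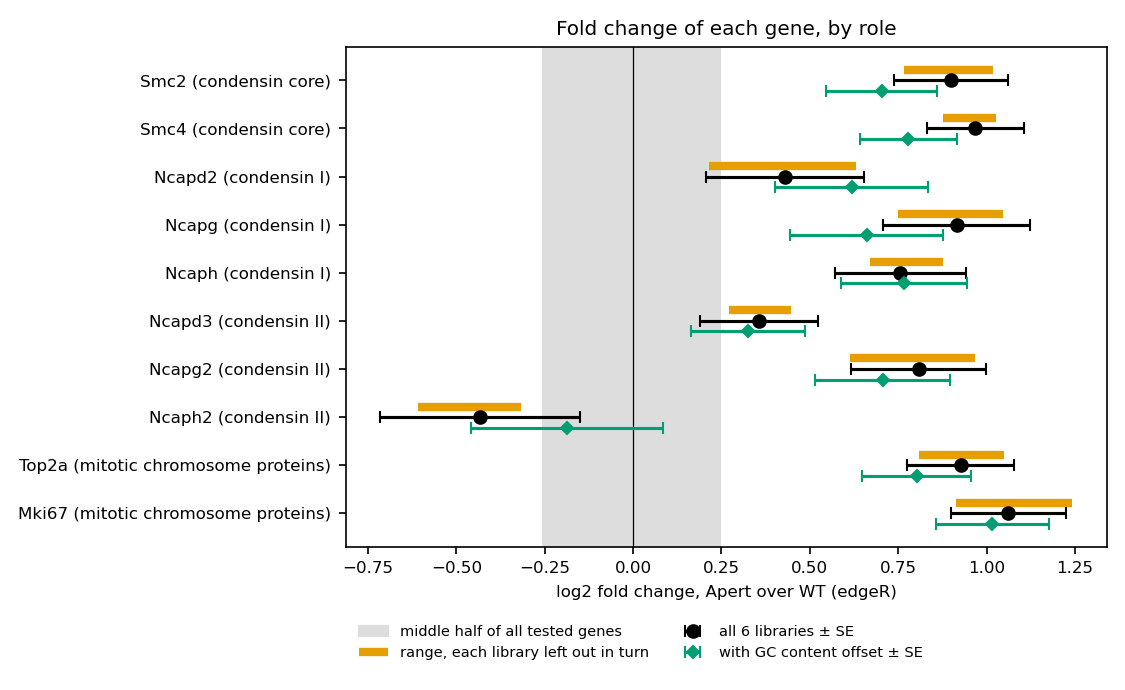
Log2 fold change of each gene, Apert over WT (x axis), by role: all 6 libraries with the standard error (black), the range when each library is left out in turn (orange bar), and the fit with an offset for GC content with its standard error (green). The grey band spans the quartiles of all tested genes, -0.26 to 0.25, and Ncaph2 is the gene to its left.

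Per kilobase of exon, Mki67 stood first in both genotypes, at 137 ± 19.9 CPM per kb in Apert and 65.4 ± 14.9 CPM per kb in WT (SD, n = 3 each). Smc4 followed at 62.9 ± 3.26 CPM per kb in Apert and 32.2 ± 3.66 in WT, then Top2a at 44.1 ± 5.19 in Apert and 23.2 ± 3.87 in WT, then Smc2 at 32.9 ± 4.83 in Apert and 17.6 ± 2.91 in WT (SD, n = 3 each). These 4 genes kept that order, but Top2a and Smc2 overlapped in WT. Ncaph, Ncapd3, Ncapg2 and Ncapd2 lay close together, from 10.1 to 10.98 CPM per kb in Apert and from 6.07 to 8.43 CPM per kb in WT, and neighbours among them overlapped in both genotypes. Ncapg came next, at 6.703 ± 1.275 CPM per kb in Apert and 3.56 ± 0.683 in WT, and Ncaph2 was last, at 2.18 ± 0.380 in Apert and 2.955 ± 0.626 in WT (SD, n = 3 each). Ncapg and Ncaph2 overlapped in WT and did not in Apert. Levels were divided by all exon bases, also those shared with other genes. Ncaph2 shares 19.7% of them with Sco2, which had 0 counts in every library, and 12.7% with Tymp. Ncapg shares 13.3% with Lcorl, so the order of Ncapg and Ncaph2 is uncertain. Among all tested genes ranked by CPM per kb, Mki67 exceeded 99.2% in Apert and 98.005% in WT, Smc4 97.7% in Apert and 94.3% in WT, and Ncaph2 32.003% in Apert and 39.8% in WT.

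**Figure D3:**
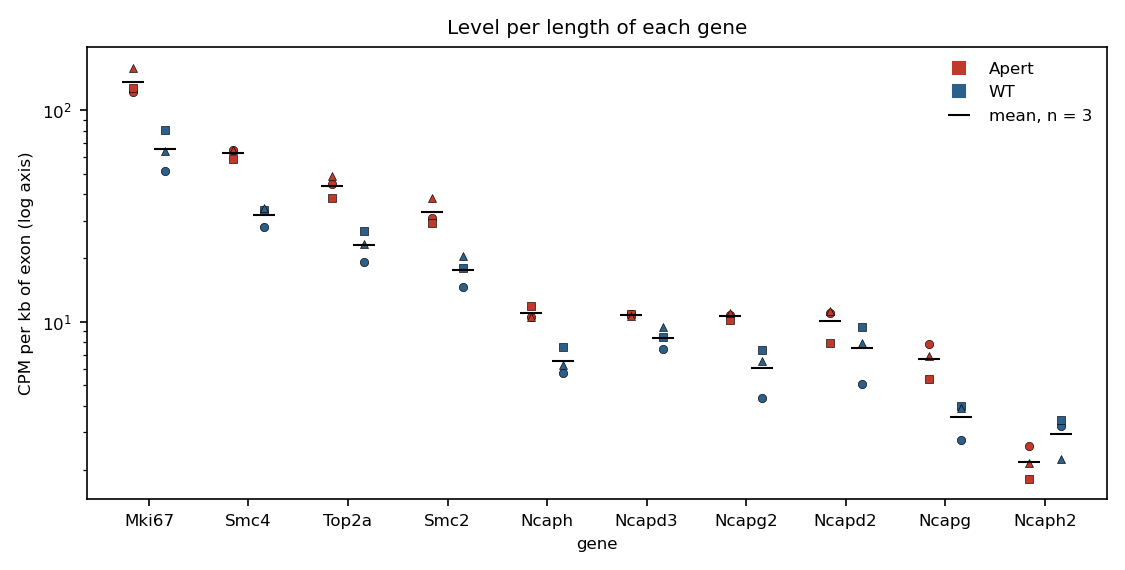
CPM per kilobase of exon (y axis, log scale) of each gene in the Apert libraries (red) and the WT libraries (blue), with the mean of 3 libraries as a line and a shape for each replicate number, ordered by the Apert mean. Mki67, Smc4, Top2a and Smc2 stand above the subunits particular to either condensin. Ncaph2 has the lowest mean in both genotypes, with exon bases shared with other genes counted in its length.

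Because ratios between genes of 1 library do not depend on how libraries are scaled, the subunits were also set against each other per kilobase. The summed core (Smc2 and Smc4) was 1.79, 1.84 and 1.97 times the summed 6 other subunits in Apert replicates 1 to 3, against 1.49, 1.29 and 1.52 times in WT replicates 1 to 3. Without adjustment for GC content, the core thus took a larger share of condensin transcript in every Apert library. The condensin I subunits summed to 1.22, 1.10 and 1.21 times the condensin II subunits in Apert, against 0.909, 1.09 and 0.995 times in WT, with Apert replicate 2 just above WT replicate 2. The kleisins differed most, with Ncaph at 4.08, 6.56 and 4.87 times Ncaph2 in Apert, against 1.79, 2.21 and 2.78 times in WT. The other paired subunits did not separate the genotypes. Ncapg was 0.630 ± 0.104 times Ncapg2 in Apert and 0.594 ± 0.0482 times in WT, and Ncapd2 was 0.937 ± 0.180 times Ncapd3 in Apert and 0.884 ± 0.219 times in WT (SD, n = 3 each). Smc4 was 1.93 ± 0.209 times Smc2 in Apert and 1.84 ± 0.117 times in WT, and Mki67 was 3.10 ± 0.331 times Top2a in Apert and 2.80 ± 0.175 times in WT (SD, n = 3 each). All these ratios were taken without an offset for GC content, and its part in them was not tested. With that offset the log2 fold changes were 0.70 for Smc2 and 0.78 for Smc4. For the 6 other subunits they were 0.77 (Ncaph), 0.71 (Ncapg2), 0.66 (Ncapg), 0.62 (Ncapd2), 0.32 (Ncapd3) and -0.19 (Ncaph2).

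The rest of the machinery around condensed chromosomes was described from lists of 83 genes, all of them tested. The edgeR test called 1 of the 83 higher in Apert and none lower, beside 0.398% and 0.0525% of all genes. The gene called is 1 of 16 condensin regulators and chromosome-bound motors, whose median log2 fold change was 0.40, and 15 of that list did not pass. Of the 16, 8 were higher and none lower at an unadjusted p under 0.05 in edgeR. DESeq2 called 2 of the 16 higher and edgeR with no low-count filter 3, with Kif4 among them in both. These 2 fits also called more genes in all than the main fit. DESeq2 called 161 of 13333 genes higher and 62 lower. With no low-count filter, edgeR called 154 of 23141 genes higher and 93 lower. The chromokinesin gene Kif4, whose product works with condensin on chromosome arms, had a log2 fold change of 0.88 (edgeR, adjusted p = 0.108), and the kinase gene Ttk of 0.70 (edgeR, adjusted p = 0.210).

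Of 14 genes of the perichromosomal layer and partners of Ki-67, edgeR called none in either direction, with 5 higher at an unadjusted p under 0.05, and their median log2 fold change was 0.21. DESeq2 called 2 of them higher, Kif15 and Cdca2, as did edgeR with no low-count filter. Kif15, a kinesin that binds Ki-67, was at 104 ± 6.86 CPM in Apert and 57.7 ± 20.7 CPM in WT, with a log2 fold change of 0.85 (SD, n = 3 each; edgeR, adjusted p = 0.0850). Cdca2, which brings a phosphatase to chromosomes, had 0.72 (edgeR, adjusted p = 0.0834), and Ncl, the nucleolin gene, 0.45 (edgeR, adjusted p = 0.298), or 0.19 without Apert replicate 3. The list of other SMC complexes held 12 genes, those of cohesin and SMC5/6 together with Smchd1. Of these 12 genes edgeR called none, with 7 higher at an unadjusted p under 0.05, while DESeq2 called 1, Smc6. Log2 fold changes were positive for 10 of the 12, with a median of 0.35. Smc6 was at 0.61 (edgeR, adjusted p = 0.0955), and the cohesin genes Rad21 and Stag1 were at 0.39 and 0.35 (edgeR, adjusted p = 0.291 and 0.292). Of 7 genes of other topoisomerases and of the enzymes that release them from DNA, edgeR and DESeq2 called none, none had an unadjusted p under 0.05 in edgeR, and the median was 0.17. Top2b, the other topoisomerase II gene, which non-dividing cells also express, was at 241 ± 21.9 CPM in Apert and 193 ± 41.1 CPM in WT (SD, n = 3 each), with a log2 fold change of 0.32 (edgeR, adjusted p = 0.471), and Top1 and Tdp1 were at 0.21 and 0.31. These values rested on single libraries, being 0.16 for Top2b and 0.08 for Tdp1 without WT replicate 2, and 0.11 for Top1 without Apert replicate 1.

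Regulators of cell cycle promoters and genes of DNA synthesis were measured as well. Of 19 genes of the DREAM, MuvB, E2F and NF-Y regulators, edgeR called none, with 4 higher at an unadjusted p under 0.05, and their median log2 fold change was 0.26. DESeq2 called 2 of them higher, E2f7 and E2f8, as did edgeR with no low-count filter. The repressor genes E2f7 and E2f8, which are themselves cell cycle regulated, had 0.85 and 0.74 (edgeR, adjusted p = 0.144 and 0.138), and Lin9, a MuvB subunit gene, had 0.72 (edgeR, adjusted p = 0.253). Of 15 S phase genes, edgeR called none, with 4 higher at an unadjusted p under 0.05, and DESeq2 called 1, Slbp. Their median was 0.09 and was -0.06 when libraries were scaled by totals alone. With TMM scaling, log2 fold changes were positive for 10 of the 15 and negative for 5, lowest for Ccne1 (-0.41) and Mcm2 (-0.38). The histone mRNA-binding gene Slbp had 0.62 (edgeR, adjusted p = 0.168), the ribonucleotide reductase gene Rrm1 0.52 (edgeR, adjusted p = 0.240) and the cyclin gene Ccne2 0.46 (edgeR, adjusted p = 0.429). The differences between these lists and the condensin genes were not tested.

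**Figure D4:**
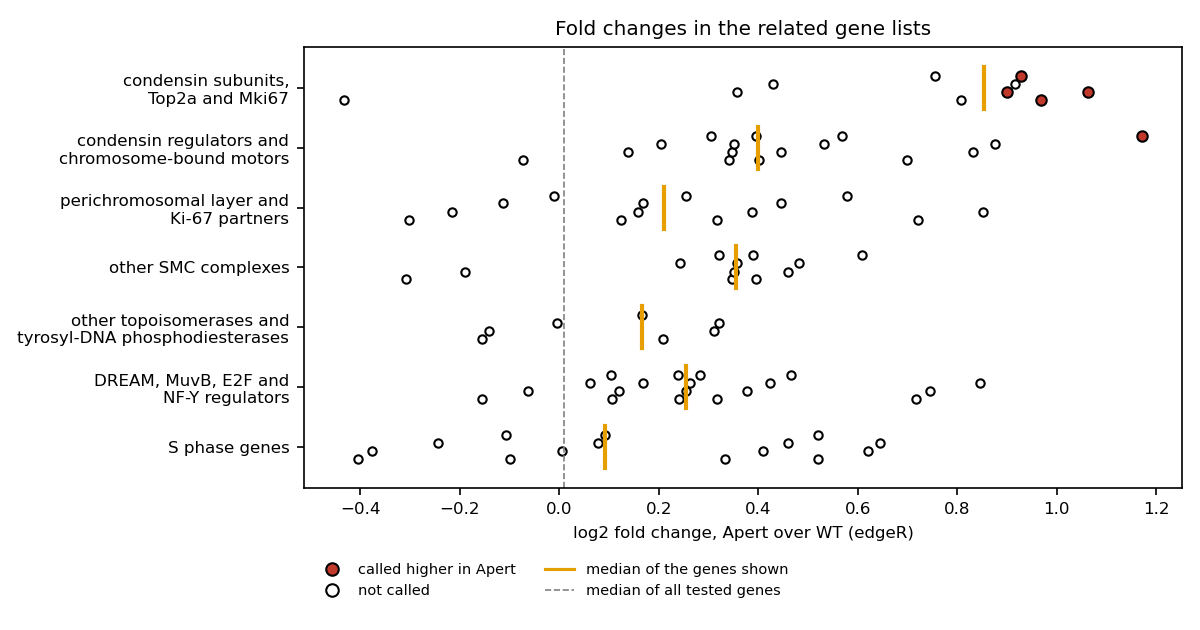
Log2 fold change, Apert over WT (x axis), of each condensin subunit, Top2a and Mki67 (top row) and of each gene in the 6 related lists (points), with the median of the genes shown in orange. Filled points are genes called higher in Apert by edgeR, 4 in the top row and 1 in the row below it, and the dashed line is the median of all tested genes, 0.01.

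Among 7433 other genes with a mean of at least 10 CPM, the profiles nearest to the mean centred log2 profile of the 10 genes over the 6 libraries were those of Pola1, Aspm, Rbbp8, Matn2, Tnc and Hmgb2. Their root-mean-square difference from it was 0.08 to 0.11 on the log2 scale, where the median gene differed by 0.42. Pola1 encodes the catalytic subunit of DNA polymerase alpha, Aspm a spindle pole protein, Rbbp8 a DNA end resection factor and Hmgb2 a chromatin protein, while Matn2 and Tnc encode matrix proteins. They were picked for likeness to a profile that itself differs between the genotypes, so no test of them is given. Pola1, the nearest, was measured at 65.6, 60.4 and 60.8 CPM in Apert, against 33.5, 48.3 and 39.6 CPM in WT. The mean profile itself was lowest in WT replicate 1 (-0.59) and highest in Apert replicate 3 (0.43), with WT replicates 2 and 3 at -0.14 and -0.29 and Apert replicates 1 and 2 at 0.38 and 0.21. Ncaph2 stood farthest from that profile of the 10 genes, by 0.60 where the other 9 lay between 0.13 and 0.23.

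Other measured values moved with the genotype beside these genes. The 10 perichondrium and fibrous mesenchyme markers summed to 3073 to 3325 CPM in Apert and to 2210 to 2490 CPM in WT with no overlap, and 2 of the 10, Col3a1 and Ogn, rose (edgeR, adjusted p = 0.0322 and 0.0363). Each of these calls was lost without any 1 of the WT libraries or Apert replicate 2 or 3, and with scaling by library totals alone, and that of Ogn also with the GC content offset. Of these 10 markers, 7 were higher and none lower at an unadjusted p under 0.05 in edgeR. DESeq2 called 4 of them higher and none lower, beside 161 higher and 62 lower of all 13333 genes. Log2 fold changes were positive for 8 of the 10 and negative for 2, Dcn (-0.22) and Twist1 (-0.01). Col1a2 was the largest part of the sum, at a mean of 1345 CPM in Apert and 1195 CPM in WT. The 10 chondrocyte markers summed to 28486 to 30612 CPM in Apert and 27876 to 36954 CPM in WT. Col2a1 and Hapln1 made up most of that sum, with means of 17510 and 6378 CPM in Apert and 19695 and 5686 CPM in WT. None of the 10 was called by edgeR, and 3 were lower at an unadjusted p under 0.05. Of all 13333 genes tested, 1515 had such a p in edgeR, 847 of them higher in Apert. DESeq2 called 2 of the 10 lower, Chad and Sox9, beside 62 of all 13333 genes. Log2 fold changes were negative for 8 of the 10 and positive for 2, Hapln1 (0.17) and Col9a1 (0.03). Chad, a cartilage matrix protein gene, was at 105 ± 3.38 CPM in Apert and 162 ± 22.2 CPM in WT (SD, n = 3 each; edgeR, adjusted p = 0.0695). Sox9, which drives chondrocyte identity, was at 479 ± 139.9 CPM in Apert and 760 ± 109 CPM in WT (SD, n = 3 each; edgeR, adjusted p = 0.125). Glial markers summed to 182 to 208 CPM in Apert and 239 to 302 CPM in WT, with no overlap and Foxd3 at 0 in every library. Summed markers of the other cell types overlapped between the genotypes. These were epithelial (0 to 2.59 CPM in Apert, 0.974 to 1.21 in WT, Krt14 and Cdh1 at 0), muscle (6.94 to 7.49 and 5.03 to 10.6, Myod1 and Myog at 0), neuron (5.65 to 10.5 and 1.99 to 12.5), endothelial (1.59 to 4.375 and 1.04 to 3.14), macrophage (4.26 to 13.1 and 4.33 to 8.58) and erythroid and globin genes (58.5 to 70.6 and 50.3 to 92.6 CPM, Apert first in each). The part of the perichondrial, glial and mitochondrial values in the differences of the condensin genes was not tested.

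GC content also moved with the fold changes of all genes. With genes split by GC content into 5 bins of equal size, the median log2 fold change was 0.20 in the lowest bin and -0.26 in the highest. Ncapg (34.8% GC), Smc2 (39.7%) and Smc4 (40.2%) lie in the lowest bin, as does Top2a (43.4%), while Ncaph2 (55.7%) lies in the highest and Ncapd2 (54.0%) in the next. Mki67 has 46.6%, Ncapg2 44.3%, Ncapd3 46.8% and Ncaph 48.3%. With an offset for GC content the log2 fold changes were 0.66 for Ncapg, 0.70 for Smc2, 0.78 for Smc4, 0.80 for Top2a and 1.02 for Mki67. They were 0.62 for Ncapd2, 0.77 for Ncaph, 0.32 for Ncapd3, 0.71 for Ncapg2 and -0.19 for Ncaph2, with a median of 0.71 over the 10 genes. Smc4, Top2a and Mki67 were called in that fit and Smc2 was not, among 21 genes called higher and 1 lower.

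**Figure D5:**
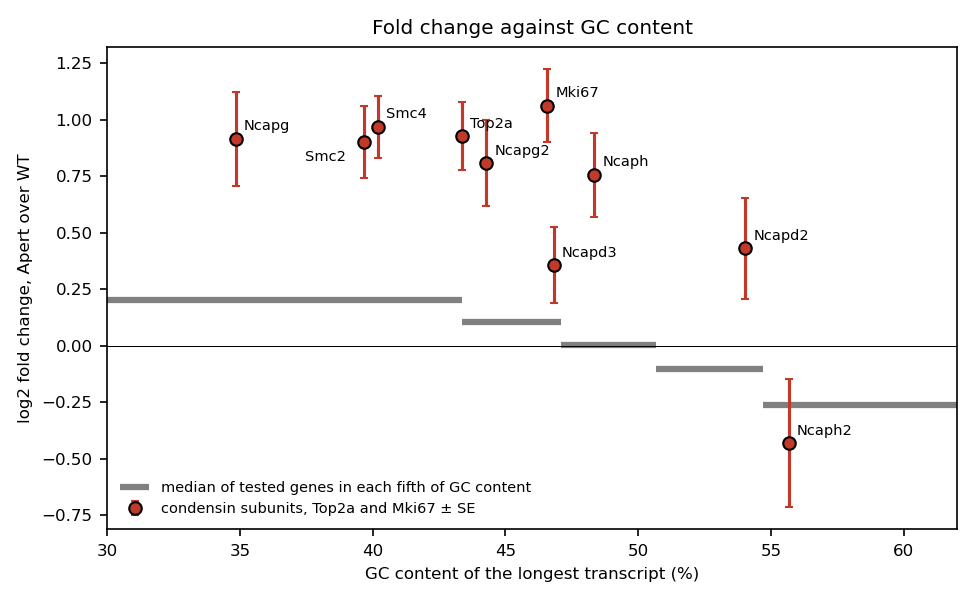
Log2 fold change of each gene with its standard error (y axis) against the GC content of its longest transcript (x axis, in percent, shown from 30 to 62), with grey lines for the median of tested genes in each of 5 GC bins. The grey lines step down from 0.20 to -0.26, 9 of the genes lie above the line of their bin, and Ncaph2 lies below its own with an error bar that crosses it.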

How the data were processed

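RNA-seq libraries were made from 15 ng of RNA per mouse, amplified with the NuGEN Ovation system and tagged with Nextera XT, then sequenced as 100 bp pairs, per the labels' protocols. No molecular identifiers are described, and amplification can favour some transcripts by base composition or length. The deposited files hold raw fragment counts per gene, summarised over exons by the authors in featureCounts 1.4.4 ignoring strand, on Ensembl release 75 models of GRCm38, per the file headers. Trimming and alignment tools were cutadapt and STAR 2.5.2b, and the build was mm10, per the submitters' processing notes. IDs were matched to symbols for 37607 of 38924 genes, and genes without a symbol stayed in the totals.

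The count test was that of edgeR 4.0.16 in R 4.3.3 (filterByExpr filter, TMM, glmQLFit and glmQLFTest, Benjamini-Hochberg adjustment over 13333 genes, threshold 0.05), and the procedure was tested on simulated data. Standard errors were derived from each fold change and its F statistic. CPM per kb divides by the exon length in the files. Profiles used log2 CPM with a prior count of 2. GC content came from the longest GENCODE transcript, with curves fitted in mgcv 1.9.3, for 13192 tested genes. DESeq2 1.42.0 and limma 3.58.1 were alternatives, and shares of counts were compared by exact permutation in scipy 1.17.1. The members and lists were chosen with earlier results of these data known, and the motifs after the promoters were read. The named genes are the 10 members, Fgfr2, 3 genes per list with the smallest p, and the 6 nearest profiles, and 1 gene that the rule names is not reported here. Marker genes with counts were named after their values were seen. No label ties replicate numbers to a litter or day, and no 2 libraries agreed within sampling noise (chi-square per degree of freedom at least 11.5).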

Additional observations from a re-analysis of the deposited data

How the results depend on the processing

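All 18 alternatives kept the sign of each of the 10 fold changes. Of the other genes named, Col2a1 changed sign. Its log2 fold change of -0.17 was 0.24 both with the GC content offset and with that offset and the replicate block, and leaving out single libraries gave -0.28 to 0.018, the highest without WT replicate 2. The median log2 fold change of the 10 genes ran from 0.70 (library totals only) to 0.94 (without WT replicate 2). The number of the 10 genes called higher in Apert was 4, and was 7 with no filter on low counts, with DESeq2 and with the replicate number as a block. Leaving out single libraries gave 0 to 4, being 0 without WT replicate 3 or Apert replicate 2. Over all genes, 53 were called higher and 7 lower. These counts were 17 and 24 with library totals only, 154 and 93 with no filter on low counts, 161 and 62 with DESeq2, and 21 and 1 with the GC content offset. Leaving out single libraries gave 0 to 119 higher and 0 to 110 lower. Without WT replicate 3 edgeR called none, with 1376 genes at an unadjusted p under 0.05. Thinning to the shallowest total gave 11 genes lower. With the replicate block 128 genes were higher and 44 lower, and with the block and the GC content offset 96 and 15. Deviations from the group means of equal replicate numbers correlated at 0.19, 0.02 and 0.09 over 13333 genes, and Apert replicate 2 correlated best with another number, so the pairing is not established. The mitochondrial difference was 5.80 to 8.83 percentage points when single libraries were left out. The causes of these moves were not tested. Ncaph2, at 56 to 155 counts per library, is the gene most limited by depth.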
